A study of Mus musculus with 2 samples.

Results

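The KLF and SP transcription factors described here are 10 genes, Klf1, Klf2, Klf3, Klf6, Klf10, Klf11, Klf13, Klf16, Sp1 and Sp3. They were taken by name, with no threshold on their values, from the 43346 genes with an Ensembl identifier in the deposited tables, and their 28 transcripts from the 103639 transcripts. Earlier results of these data were already known when the 10 genes were picked. RNA was measured by polyA-selected paired-end sequencing in G1E-ER4, a mouse erythroid line. There was 1 group of 2 libraries, both from cells given 10 nM 17beta-estradiol for 14 h. G1E cells lack GATA1, and the ER4 derivative carries GATA1 joined to the hormone-binding part of an estrogen receptor; estradiol activates the fusion and starts maturation. The labels give the line as male and immortalized and number the libraries as biological replicates 1 and 2. The biosample record is shared by the libraries, and their spread may therefore be technical. Untreated cells were not analysed here, and no value below is a response to estradiol.

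KLF and SP proteins share a C-terminal zinc-finger domain that binds GC boxes and CACCC-type sites. Their N-terminal parts differ and recruit activators or repressors, so that members with opposite actions can compete for the same sites. In erythroid cells KLF1 activates the adult beta-globin gene and many genes of heme synthesis, the membrane and the cell cycle, and KLF3, itself a target of KLF1, represses through CtBP proteins.

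The libraries held 38395481 and 60097379 expected counts. All 12 erythroid markers reached 1 TPM (a level per transcript length, scaled to the same total in each library) in both libraries, against 0 of 8 granulocyte and macrophage markers, 0 of 6 lymphoid markers, 0 of 7 endothelial and fibroblast markers, 1 of 6 mast cell markers and 4 of 8 megakaryocyte markers. The erythroid markers summed to 31912 TPM in replicate 1 and 83562 TPM in replicate 2, and the alpha- and beta-globin genes together to 30239 and 80633 TPM. Gata1 stood at 1132 and 2656 TPM, which can come from the added fusion or from the cells' own gene. In bulk RNA, fewer cells of a type and less RNA per cell cannot be told apart.

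Of the 10 genes, 8 reached 1 TPM in both libraries, against 37.6% of nuclear protein-coding genes, and 4 reached 50 TPM, against 9.05%. The median over the 10 genes came to 22.96 TPM (replicate 1) and 18.9 TPM (replicate 2), against 0.03 and 0.02 TPM over all nuclear protein-coding genes. Most of those genes did not reach 1 TPM. Over the nuclear protein-coding genes that did in both libraries, the median of mean TPM was 20.3. The median over the 10 members was 17.6 TPM, but it takes in Klf2 and Klf10, which did not reach 1 TPM. These medians therefore cover unlike sets. Of the members that did reach it, Klf1, Klf13, Klf3 and Klf16 had means of 109.9 TPM or more. Klf11, Sp3, Sp1 and Klf6 had means of 18.1 TPM or less. Klf1, Klf13, Klf3 and Klf16 together held 91.3% and 89.3% of the summed TPM of all 26 KLF and SP genes. By mean TPM the order was Klf1, Klf13, Klf3, Klf16, Klf11, Sp3, Sp1, Klf6, Klf10 and Klf2.

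**Figure D1:**
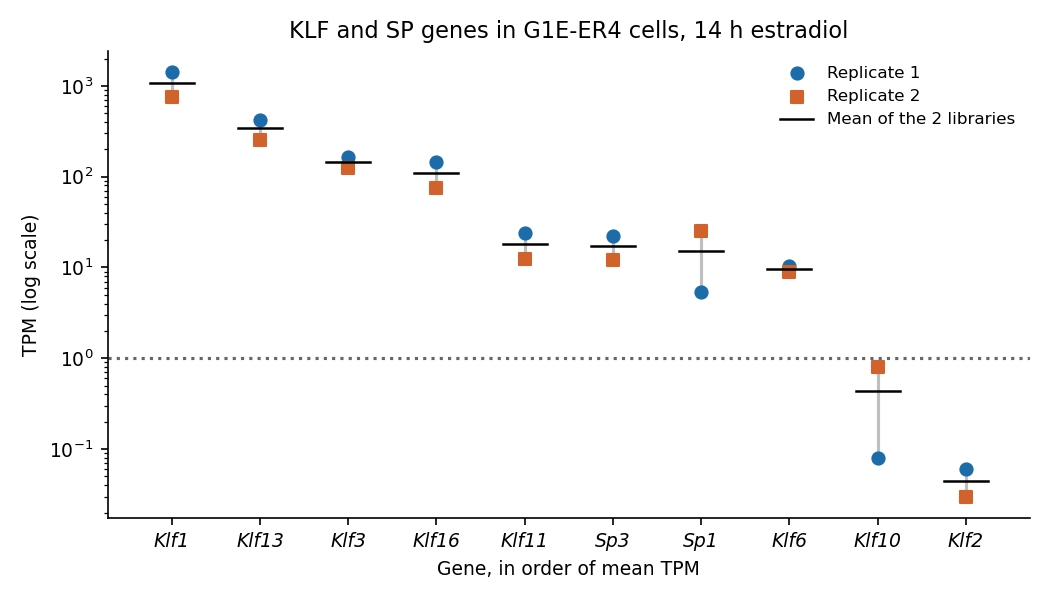
Level of each of the 10 genes in TPM on a log axis, with 1 point per library, a bar at their mean and a dotted line at 1 TPM. Klf1 stood highest in both libraries at 1422 and 754 TPM, and Klf2 and Klf10 lay under 1 TPM in both.

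Klf1, the erythroid activator, was the highest of the 10 in each library. It reached 1422 TPM in replicate 1 and 754 TPM in replicate 2 (1088 ± 472, SD, n = 2), from 60054 and 56553 expected counts. It ranked 92 and 160 among 21461 nuclear protein-coding genes. Klf1 alone made up 60.2% and 55.8% of the family's TPM, and 45.6% and 40.9% of its counts. It has 1 transcript in the tables and lies on the plus strand at chr8:84901928-84905291 (ENSMUSG00000054191, mm10).

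The promoter windows of Klf1, Klf3 and Sp3 are printed because Klf1 leads the family and because the transcript makeup of Klf3 and Sp3 differed between the libraries. Each window runs 5′ to 3′ on the gene's strand, 250 bases before to 50 bases after a RefSeq start (GRCm38.p6, the build of mm10). Capitals mark matches on either strand to GGGCGG (GC box), CCNCNCCC (CACCC-type site) and GATAA (GATA core), and GC boxes and CACCC-type sites can overlap.
Klf1, chr8:84901732-84902031, plus strand: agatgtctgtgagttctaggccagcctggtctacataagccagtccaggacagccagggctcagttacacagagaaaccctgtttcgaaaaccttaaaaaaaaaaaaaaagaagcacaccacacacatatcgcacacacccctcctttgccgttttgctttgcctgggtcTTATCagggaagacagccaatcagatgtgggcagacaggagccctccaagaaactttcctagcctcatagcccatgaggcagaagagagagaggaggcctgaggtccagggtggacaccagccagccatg
Klf3, chr5:64803271-64803570, plus strand: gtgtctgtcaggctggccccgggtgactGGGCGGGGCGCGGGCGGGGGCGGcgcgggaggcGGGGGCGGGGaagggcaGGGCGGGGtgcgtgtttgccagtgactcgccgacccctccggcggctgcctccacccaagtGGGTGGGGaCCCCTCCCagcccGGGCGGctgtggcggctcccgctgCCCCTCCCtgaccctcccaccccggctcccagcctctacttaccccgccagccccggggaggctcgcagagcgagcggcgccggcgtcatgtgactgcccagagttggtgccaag
Sp3 upstream start, chr2:72980397-72980696, minus strand: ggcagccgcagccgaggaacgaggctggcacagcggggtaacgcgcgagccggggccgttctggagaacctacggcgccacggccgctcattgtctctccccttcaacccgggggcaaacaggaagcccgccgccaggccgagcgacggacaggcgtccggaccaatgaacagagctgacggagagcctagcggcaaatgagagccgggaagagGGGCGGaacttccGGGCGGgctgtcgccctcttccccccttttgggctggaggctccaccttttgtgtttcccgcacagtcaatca
Sp3 downstream start, chr2:72979232-72979531, minus strand: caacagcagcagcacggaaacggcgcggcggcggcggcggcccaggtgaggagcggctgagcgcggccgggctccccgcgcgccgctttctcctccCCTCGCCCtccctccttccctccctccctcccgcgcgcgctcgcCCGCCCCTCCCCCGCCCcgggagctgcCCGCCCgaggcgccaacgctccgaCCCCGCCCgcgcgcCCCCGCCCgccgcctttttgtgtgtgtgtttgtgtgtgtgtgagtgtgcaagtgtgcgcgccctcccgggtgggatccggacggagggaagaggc

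The Klf1 window held 1 GATA core and no match to GGGCGG or CCNCNCCC. The Klf3 window, which lies at the upstream start of that gene, held 6 GC boxes and 10 CACCC-type sites. For the downstream start of Klf3 no window was found, so these matches do not describe it. The letters CACCC do occur in the Klf1 window, outside any match to the longer CCNCNCCC. Across the 9 windows found for 8 of the 10 genes, 88.9% held a GC box, against 35.6% of all 32817 mouse windows of the same length. A CACCC-type site was present in 77.8%, against 49.5% of all windows. GATAA occurred in 22.2%, those of Klf1 and Sp1, against 25.4% of all. Such matches describe letters in a window and not bound sites.

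Klf3, the CtBP-dependent repressor (ENSMUSG00000029178, chr5:64803388-64832901, plus strand), stood at 165 and 125 TPM (145 ± 28.3, SD, n = 2). Klf1 exceeded Klf3 by 3.10 and 2.59 log2 units of TPM (2.85 ± 0.36, SD, n = 2; 0.1 TPM added to each), more than the spread between the libraries. The transcript makeup of Klf3 was not the same in the libraries. Klf3-201, which starts upstream, made up 75.95% of the gene's TPM in replicate 1 and 32.4% in replicate 2. Its level was 126 TPM (deposited 95% credibility interval 116.8 to 128) and 40.6 TPM (38.1 to 42.1).

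Klf3-202, whose start lies 8951 bases downstream, went the other way, with 24.1% and 67.6%. It stood at 39.7 TPM (30.8 to 46.9) and 84.6 TPM (79.99 to 86.6). The intervals of the libraries did not overlap for either transcript. Each interval covers the estimate within its own library and not the spread between libraries. The share of all transcripts without overlap was not counted, so this does not set Klf3 apart. Background knowledge places an upstream and a downstream promoter at Klf3, the latter activated by KLF1. The Klf3 window printed above lies at the upstream start, and sites at the downstream promoter were not examined. The transcript models of Klf3 have identical coding segments but also differ at their 3′ ends, so these shares do not isolate the use of the start.

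**Figure D2:**
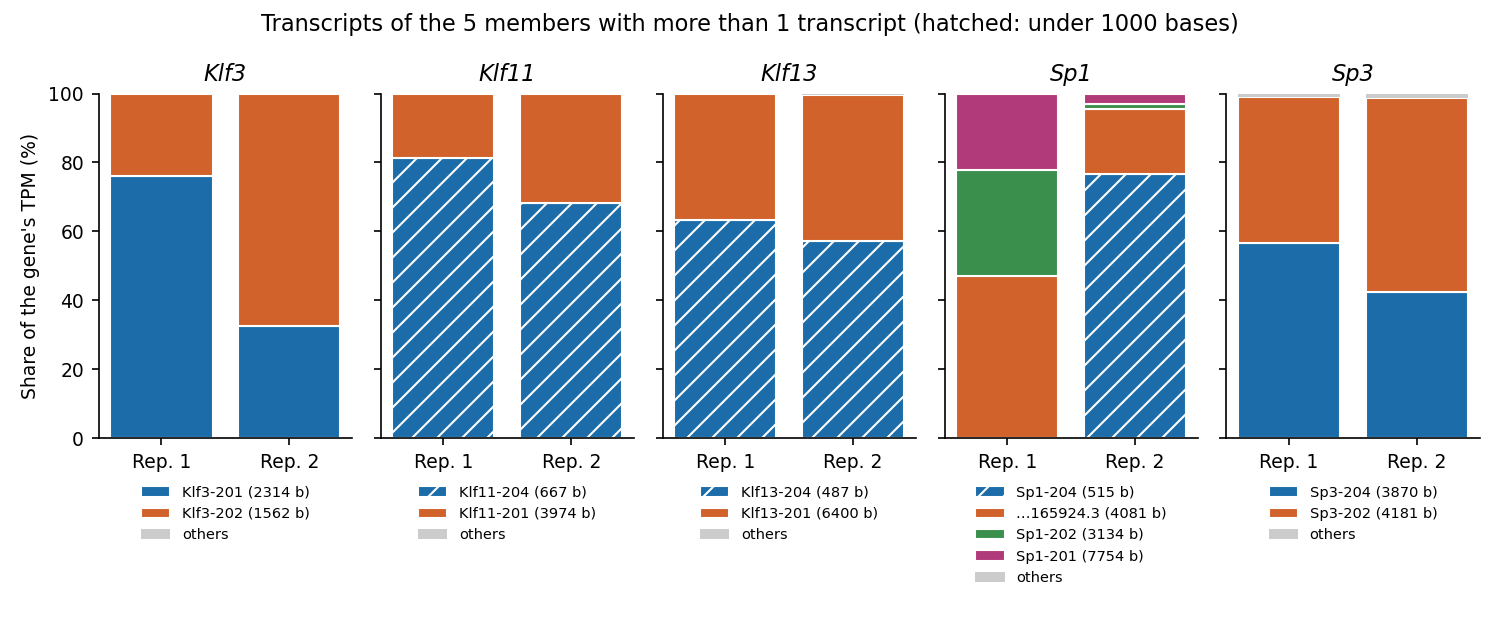
Share of each gene's TPM held by each of its transcripts, in percent, per library, for the members with more than 1 transcript, with hatching for transcripts under 1000 bases. The larger share of Klf3 passed from Klf3-201 in replicate 1 to Klf3-202 in replicate 2.

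Klf13 and Klf16, which repress through SIN3A, were the other abundant members. Klf13 (ENSMUSG00000052040, chr7:63886351-63938915, minus strand) stood at 426 and 253 TPM (339 ± 122, SD, n = 2), and Klf16 (ENSMUSG00000035397, chr10:80567124-80577321, minus strand) at 145 and 75.0 TPM (109.9 ± 49.3). Klf13 exceeded Klf16 by 1.65 ± 0.14 log2 units (SD, n = 2), beyond the spread. The size of that gap depended on how short transcripts were treated. Klf13-204, of 487 bases, held 63.2% and 57.2% of the TPM of Klf13, while transcripts under 1000 bases held 8.62% and 6.75% of its counts. With transcripts of at least 1000 bases alone, a setting chosen after seeing the data, Klf13 stood at 156 and 107 TPM (132 ± 34.6), and its excess over Klf16 was 0.31 ± 0.29 log2 units, within the spread. By counts not divided by length, the excess was 1.74 ± 0.27 log2 units and beyond it.

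Klf10 and Klf11, repressors known as early targets of TGF-beta, were low or uneven. Klf11 (ENSMUSG00000020653, chr12:24651274-24662789, plus strand) stood at 23.8 and 12.4 TPM (18.1 ± 8.05, SD, n = 2). The 667-base Klf11-204, whose coding end is incomplete, held 81.2% and 68.3% of that. With transcripts of at least 1000 bases, Klf11 stood at 4.49 and 3.94 TPM. Klf10 (ENSMUSG00000037465, chr15:38291463-38300706, minus strand) had 7 and 125 counts, or 0.08 and 0.80 TPM. Klf10 lay below Klf11 in both libraries, with log2 ratios of -7.05 and -3.80, a gap that did not exceed the spread. With 1 TPM in place of 0.1 TPM added to each gene, the gap exceeded it (-3.71 ± 1.15).

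Sp1 and Sp3 are widely expressed factors that bind the same GC boxes, Sp1 as an activator and Sp3 as an activator or repressor. Sp3 (ENSMUSG00000027109, chr2:72936427-72980446, minus strand) stood at 22.1 and 12.1 TPM (17.1 ± 7.07, SD, n = 2), and Sp1 (ENSMUSG00000001280, chr15:102406143-102436404, plus strand) at 5.33 and 25.4 TPM (15.4 ± 14.2). Sp3 was thus the higher in replicate 1 and Sp1 in replicate 2. The 515-base Sp1-204 was listed at 0 counts in replicate 1 and held 76.7% of the gene's TPM in replicate 2, from 381 counts. The longer ENSMUST00000165924.3 held 47.1% and 18.8%, Sp1-202 30.55% and 1.5%, and Sp1-201 22.3% and 3.03%. With transcripts of at least 1000 bases, Sp1 stood at 5.33 and 5.92 TPM and was below Sp3 in both libraries.

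The 2 windows printed for Sp3 lie at the starts of its main transcripts. Sp3-202, which codes for protein and begins at the upstream start, held 42.1% and 56.2% of the gene's TPM. Sp3-204, annotated as a processed transcript with no coding segment and starting 1160 bases downstream, held 56.8% and 42.4%. The main Sp3 transcript therefore differed between the libraries. The upstream window held 2 GC boxes and the downstream window 5 GC boxes and 6 CACCC-type sites.

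**Figure D3:**
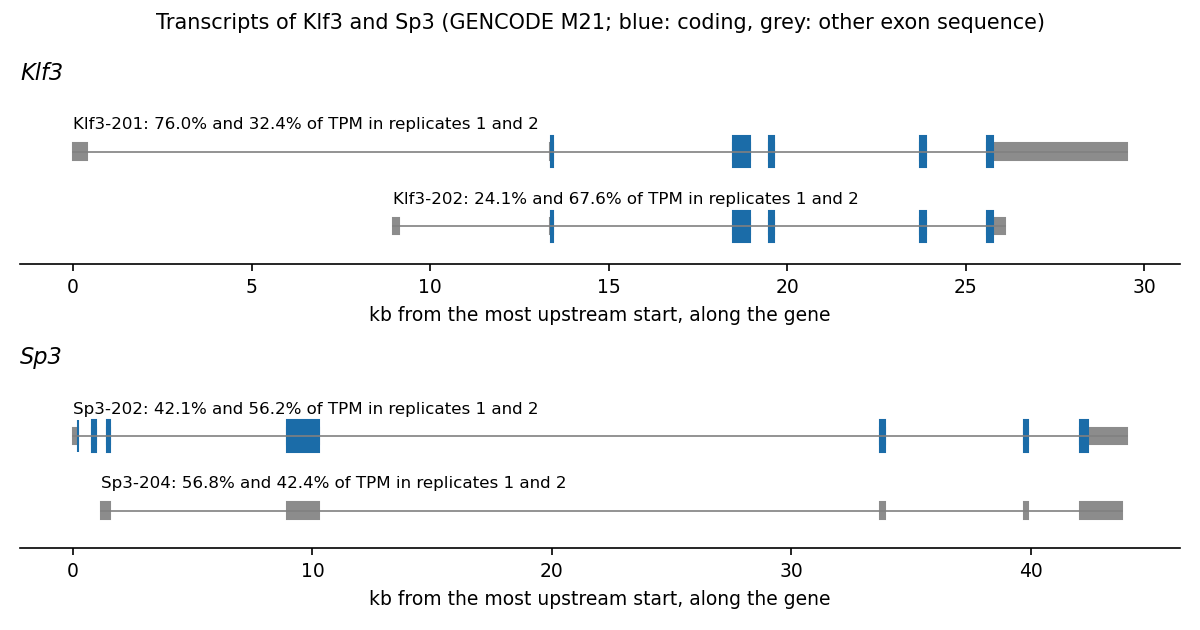
Exon models of the Klf3 and Sp3 transcripts drawn to scale in kilobases from the first start of each gene, from GENCODE M21, in which Klf3-201 is longer at its 3′ end than in the deposited table (5221 against 2314 bases), with coding sequence in blue. Klf3-202 begins 8951 bases and Sp3-204 1160 bases after the first start.

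Klf6 and Klf2 were the remaining members. Klf6, a widely expressed activator (ENSMUSG00000000078, chr13:5861482-5870394, plus strand), stood at 10.4 and 8.88 TPM (9.64 ± 1.07, SD, n = 2), the smallest relative spread of the 10. Klf2, a factor of endothelial cells and resting T cells that is also known in primitive erythroid cells (ENSMUSG00000055148, chr8:72319033-72321656, plus strand), had 3 counts in each library, the floor used here. The ratio of Klf1 to Klf2 counts was 20018 in replicate 1 (exact 95% counting interval 6849 to 97072) and 18851 in replicate 2 (6450 to 91413).

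Among the 5 members with more than 1 transcript, the main transcript by TPM differed between the libraries in 3, namely Klf3, Sp1 and Sp3, against a background of 22.3% of 4582 protein-coding genes. A transcript's share differed by at least 20 percentage points in Klf3 and Sp1, against 34.4% of those genes. In Klf11 and Klf13 more than 50% of the TPM lay on transcripts under 1000 bases in both libraries, against 30.5%. By counts in place of TPM, the main transcript differed in 2 of the 5.

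The order was only partly resolved. Of 9 neighbouring steps in it, 3 exceeded the spread between the libraries: Klf1 over Klf13 (1.66 ± 0.12 log2 units, SD, n = 2), Klf13 over Klf3 (1.19 ± 0.25) and Klf16 over Klf11 (2.59 ± 0.01). Klf3 and Klf16 did not differ beyond it (0.46 ± 0.39), nor did Klf11 and Sp3 (0.07 ± 0.05), Sp3 and Sp1 (0.48 ± 2.19), Sp1 and Klf6 (0.28 ± 1.74), Klf6 and Klf10 (4.59 ± 1.80) or Klf10 and Klf2 (1.48 ± 1.85). A step counted as beyond the spread where both libraries had the same sign and the mean exceeded 2 times their range. Klf6 lay above Klf10 in both libraries, by 5.87 and 3.32 log2 units. With 1 TPM in place of 0.1 TPM added to each gene, that step was beyond the spread (2.93 ± 0.67). With transcripts of at least 1000 bases, Klf13 and Klf3 no longer differed beyond it and the sign turned (-0.15 ± 0.10), whereas by counts not divided by length Klf13 exceeded Klf3 by 1.75 ± 0.07. Klf11 lay below Sp3 beyond the spread on both of these scales (-1.935 ± 0.48 with transcripts of at least 1000 bases, -1.46 ± 0.26 by counts). Sp1 lay below Klf6 beyond the spread with transcripts of at least 1000 bases (-0.76 ± 0.26).

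Counts of each gene were also compared between the libraries with an exact two-sided binomial test, scaled library sizes and Benjamini-Hochberg adjustment over 11230 genes. The test compares 2 libraries of 1 group and covers counting error only. Calls needed an adjusted p below 0.05 and a 1.5-fold difference. Of the 9 members tested, 5 were called, against 41.5% of all genes tested. Klf1, Klf3, Klf16 and Sp3 were higher in replicate 1, against 18.7% of genes, and Klf10 was higher in replicate 2, against 22.8%. Klf1 was 1.80-fold higher in replicate 1 (exact 95% interval 1.78 to 1.82), Klf16 1.83-fold (1.79 to 1.88) and Sp3 1.71-fold (1.62 to 1.81, adjusted p = 1.90e-81 by the exact binomial test).

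Klf3 was 1.51-fold higher in replicate 1 (1.47 to 1.55), just past the threshold, and its call was lost with the size factors of DESeq2, where replicate 2 stood at 0.675 of replicate 1, and with total counts (0.718). Klf10 was 9.89-fold higher in replicate 2 (4.97 to 26.8, adjusted p = 3.45e-17 by the exact binomial test), from 7 and 125 counts. The members not called were Klf13, 1.41-fold higher in replicate 1, Klf11 (1.33-fold), Klf6 (1.11-fold) and Sp1, 1.45-fold higher in replicate 2. At a fold of 2, 1 member, Klf10, was called, against 21.6% of all genes tested. With library sizes set by total counts, Sp1 passed at 1.57-fold. On the log2 scale, the members' count ratio (replicate 2 over replicate 1) had a median of -0.49, and that of all genes tested was 0.01. By TPM, of the 8 members at 1 TPM or more in both libraries, 5 were at least 1.5-fold higher in replicate 1 and 1, Sp1, in replicate 2. Of the 8535 such genes in the whole table, 47.0% passed that fold, 25.1% toward replicate 1 and 21.9% toward replicate 2. Over the same libraries 8 of the 12 erythroid markers were called higher in replicate 2 and 1 in replicate 1. The part of that shift in the members' differences was not tested.

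**Figure D4:**
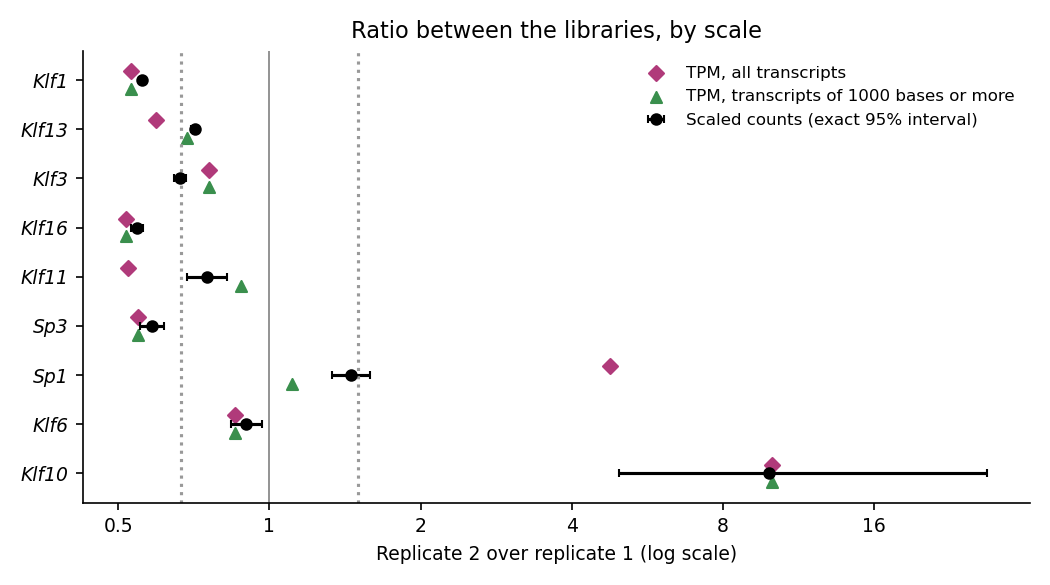
Ratio of replicate 2 to replicate 1 for each member tested, from scaled counts (with exact 95% intervals), TPM and TPM of transcripts of at least 1000 bases, on a log axis with dotted lines at a fold of 1.5. Klf10 and Sp1 lie above the line of equality and the other 7 members tested lie below it by counts.

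Of the 16 other KLF and SP genes, 3 reached 1 TPM in both libraries. Sp2, a relative of Sp1, stood at 127 and 74.6 TPM, Klf9 at 12.1 and 8.64 TPM and Sp4 at 4.12 and 2.00 TPM. Klf4, Klf5, Klf8, Klf12, Klf14, Klf17, Sp5, Sp7 and Sp8 had no counts in either library, and Klf7, Klf15, Sp6 and Sp9 had 1 to 7 counts in at least 1 library.

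Among 18 cofactors of KLF and SP proteins, 16 reached 1 TPM in both libraries, with a median of 33.4 TPM. The highest were Smarce1 (501 and 658 TPM) and Smarcb1 (476 and 184 TPM), subunits of the SWI/SNF remodelling complex with which KLF1 works, and Ctbp1 (285 and 257 TPM), the corepressor of KLF3. With transcripts of at least 1000 bases, Smarce1 stood at 64.1 and 80.1 TPM and Smarcb1 at 179 and 102 TPM, both below Ctbp1. Between the libraries 6 of 18 were called, against 41.5% of all genes tested, 5 higher in replicate 1, led by Smarcb1 (2.23-fold), and 1, the deacetylase Hdac1, higher in replicate 2 (2.01-fold).

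Of 25 genes known as KLF1 targets, 21 reached 1 TPM in both libraries, with a median of 103 TPM. Hbb-bs, an adult beta-globin gene, stood at 13158 and 49652 TPM, Alad, an enzyme of heme synthesis, at 539 and 981 TPM, and Pim1, a kinase, at 661 and 268 TPM. Of the 24 tested, 8 were called higher in replicate 2, against 22.8% of all genes tested, and 4 higher in replicate 1, against 18.7%. The largest folds were those of Hbb-bt toward replicate 2 (14.3-fold) and of Bcam toward replicate 1 (2.41-fold, from 23 and 16 counts). Klf8, itself in that list, had no counts. Hbb-bs and Hbb-bt are near-identical copies whose reads the counting may divide between them. A CACCC-type site was present in 80.0% of the 25 promoter windows found for 19 of the targets, against 49.5% of all windows. The other motifs were also more frequent there, with a GC box in 60.0%, against 35.6%, and GATAA in 36.0%, against 25.4%.

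**Figure D5:**
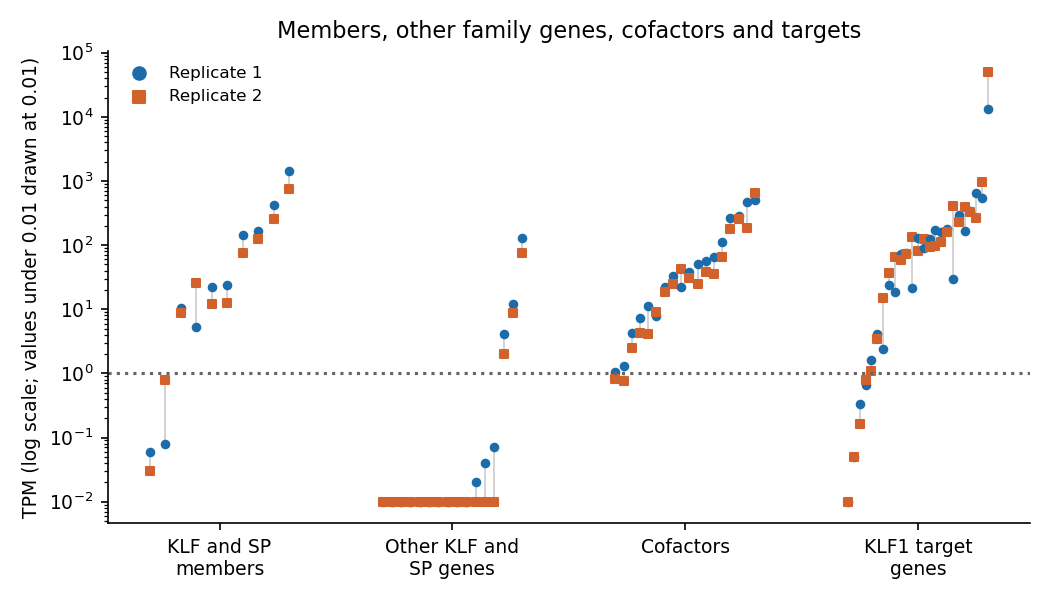
TPM of each gene in the 10 members, the other KLF and SP genes, the cofactors and the KLF1 targets, on a log axis, with 1 point per library, values under 0.01 drawn at 0.01 and a dotted line at 1 TPM. Median levels were 17.6 TPM for the members, 33.4 TPM for the cofactors and 103 TPM for the targets.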

How the data were processed

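PolyA-selected RNA was measured in 2 libraries of 1 group. In the deposited tables an expected count is a gene's or transcript's estimated number of fragments, with reads that match several models divided. The deposited TPM and FPKM are per effective length, and the isoform percent, also deposited, gives each transcript's share of its gene's TPM. The deposited signal bounds are the 95% credibility limits of the posterior mean TPM and need not contain the TPM itself. Other deposited columns give lengths in bases. Reads were assigned to mm10, per the labels, with GENCODE M4 models, per the deposited notes. For the aligner and quantifier, the version was not given in the sources used.

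The libraries held 38395481 and 60097379 expected counts, so that 3 counts correspond to 0.0781 and 0.0499 CPM. Rows without a gene name (26248) held 2 and 0 counts, or 5.2e-06% of replicate 1, and were left out. Expected counts were rounded to whole numbers, scaled with edgeR 4.0.16 (TMM) and tested in genes with at least 10 counts in sum, by the exact binomial test with Benjamini-Hochberg adjustment, 0.5 counts being added for folds. A difference in log2(TPM + 0.1) was beyond the spread where both libraries had the same sign and the mean exceeded 2 times their range. The test was tested on simulated data.

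Named were all members, the other family genes and, of each list, the 3 highest, the called genes with the largest folds and those without counts; further genes were named after their values were seen. Members and lists were chosen with earlier results of these data known. Symbols, promoters and exon models came from GENCODE M21 and RefSeq. Alternatives were DESeq2 1.42.0 size factors, total counts, filters, pseudocounts and each library alone. The restriction to transcripts of at least 1000 bases was chosen after seeing the data.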

Additional observations from a re-analysis of the deposited data

How the results depend on the processing

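Of 169 values recomputed under alternatives, 148 were counted as unchanged. These kept their direction and side of the threshold, moved by less than 1 SD or, for counts of genes or transcripts, stayed within 1.5-fold. With 2 libraries, a gene's level, log2 ratio or family share in either library lies within 1 SD of the mean by construction. Each library alone was therefore no check of those values. They are included in the 148, which is thus no measure of how robust the results are. No member's called difference between the libraries was reversed. The other library scalings shifted all genes by 0.02 and 0.11 log2 units, too little to reverse a 1.5-fold call. Changing the count filter or the fold cutoff left the ratios as they were. The log2 ratio of Sp1 to Sp3, -0.48 on average and not beyond the spread, was -2.03 in replicate 1 and 1.06 in replicate 2. That of Klf13 to Klf3 turned from 1.19 to -0.15 with transcripts of at least 1000 bases. That of Klf11 to Sp3 turned from 0.07 to -1.935 with such transcripts and to -1.46 by counts not divided by length, beyond the spread in both. The median level of the 10 genes, 17.6 TPM, was 13.4 TPM with transcripts of at least 1000 bases and ranged from 18.9 to 22.96 TPM in single libraries. Klf1 held 58.0% of the family's TPM on average, 43.2% by expected counts, 66.3% with transcripts of at least 1000 bases, and 55.8% to 60.2% in single libraries. At a fold of 2, Klf10 was the 1 member called, against 5 at a fold of 1.5, where 21.6% and 41.5% of all genes were called. By TPM, 5 of the 8 members at 1 TPM or more in both libraries differed by at least 1.5-fold toward replicate 1 and 1, Sp1, toward replicate 2, where 47.0% of all such genes did so in either direction; the cause was not tested. With library sizes set by total counts, all genes shifted by 0.11 log2 units against TMM. No paired analysis was possible because there is 1 group. With 2 libraries no test of levels was made, and depth limits Klf2 and Klf10.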

Other observations

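Sp2, which was not among the 10 genes, also differed in transcript makeup. Sp2-202 held 78.5% of the gene's TPM in replicate 1 and 14.7% in replicate 2.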
